A study of Mus musculus with 20 samples.

Results

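The 37 genes described here encode contractile, structural, calcium-handling and energy-supplying proteins of skeletal muscle, and they were measured in mouse liver RNA. They were taken by symbol from a fixed list, as every probe set whose platform annotation gave exactly 1 gene symbol found in that list. This gave 37 of 18193 genes, and 64 of the 34945 probe sets with exactly 1 symbol. The genes were chosen by their levels on the arrays of 2 mice, called 002MSXH 4 and 002MSXH 6, where earlier results of these data had shown such transcripts to be high. Differences between these arrays and the other 18 are therefore given as a description, with no test.

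Skeletal muscle contracts when myosin motors of the thick filament pull on actin of the thin filament, in repeating units that Z-discs bound and that the giant protein titin spans. Calcium released from the sarcoplasmic reticulum starts each contraction by binding troponin on the thin filament, and a calcium pump ends it by taking the ion back. Fast and slow fibres use different genes for many of these parts, which makes the isoforms markers of fibre type. Liver cells do not build sarcomeres.

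Liver RNA came from 20 male C57BL/6J mice, 8 weeks old, that had been acclimated on a low-fat diet and were fasted for 16 h before the livers were taken. For 4 weeks, 10 of them (002MSXH) ate a diet with 45 kcal% fat that also held 0.02% of a maple syrup extract named MSXH, and 10 (HFD) ate the 45 kcal% fat diet without it. Each liver's biotin-labelled RNA was hybridized to 1 Affymetrix 3' expression array. The groups on the low-fat diet and on 0.05% extract were not analysed here. The deposited levels of probe sets run from 5.17 to 15.01 and were read as log2 values, although the base of the logarithm is not stated. Their spread between arrays is strongly compressed: 97.4% of the named probe sets had an SD under 0.001 over the 20 arrays. A difference on this scale was not read as a fold of RNA. Its size served to order probe sets and to choose those described, not to compare amounts of RNA between genes.

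Arrays 002MSXH 4 and 002MSXH 6 also stood apart in their overall level. Their medians over all 45101 probe sets were 6.52255 and 6.52235, against 6.52156 to 6.52172 on the other 18 arrays. No 2 arrays held identical values. All 20 arrays carried the label's tissue: the mean level of 8 hepatocyte markers in 18 probe sets, among them albumin and the apolipoproteins, was 12.8996 on 002MSXH 4 and 12.9001 on 002MSXH 6, and 12.8996 to 12.9002 on the others. In bulk RNA, more cells of a type and more RNA per cell cannot be told apart.

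The 250 bases before the annotated start were read for members with an entry in the RefSeq promoter table (GRCm38.p6). These were 28 of 37 genes, with 34 starts. Myoz1, Actn3, Myot, Trdn, Sln, Neb, Tcap, Tnni2 and Tnnt3 had none. The sequences given here, 5′ to 3′ on the gene's strand, are those of the 3 fast myosin heavy chain genes and of the Acta1, Ttn and Ckmt2 genes, which lead their roles by the size of the difference among genes with 1 start (Mb has several). They lie at chr11:67199852-67200101 (+) for Myh1, chr11:67237562-67237811 (+) for Myh4, chr11:67170777-67171026 (+) for Myh2, chr8:123894776-123895025 (-) for Acta1, chr2:76982548-76982797 (-) for Ttn and chr13:91876886-91877135 (-) for Ckmt2. Capitals mark matches, on either strand, to the E box CANNTG, the MEF2 box, the CArG box, the TATA box TATAAA and the MCAT element CATTCC.
Myh1: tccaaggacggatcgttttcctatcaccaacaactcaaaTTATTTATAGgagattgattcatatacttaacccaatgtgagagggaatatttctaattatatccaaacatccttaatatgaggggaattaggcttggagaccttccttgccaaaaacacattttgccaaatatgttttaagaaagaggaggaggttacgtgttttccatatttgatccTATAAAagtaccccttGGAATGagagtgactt
Myh4: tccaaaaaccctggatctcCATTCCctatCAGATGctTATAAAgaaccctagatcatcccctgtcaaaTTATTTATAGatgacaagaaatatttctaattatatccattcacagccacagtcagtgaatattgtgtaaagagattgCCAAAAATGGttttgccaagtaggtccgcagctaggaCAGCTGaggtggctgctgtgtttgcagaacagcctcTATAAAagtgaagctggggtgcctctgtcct
Myh2: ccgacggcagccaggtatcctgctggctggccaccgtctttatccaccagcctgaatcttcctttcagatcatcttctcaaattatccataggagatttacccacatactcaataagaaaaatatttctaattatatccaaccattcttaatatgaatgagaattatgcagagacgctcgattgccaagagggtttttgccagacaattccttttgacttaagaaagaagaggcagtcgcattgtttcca
Acta1: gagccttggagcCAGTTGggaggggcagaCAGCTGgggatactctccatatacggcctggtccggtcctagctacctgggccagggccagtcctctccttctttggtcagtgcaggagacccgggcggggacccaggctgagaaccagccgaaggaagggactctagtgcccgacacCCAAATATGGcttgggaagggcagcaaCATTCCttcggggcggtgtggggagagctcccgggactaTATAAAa
Ttn: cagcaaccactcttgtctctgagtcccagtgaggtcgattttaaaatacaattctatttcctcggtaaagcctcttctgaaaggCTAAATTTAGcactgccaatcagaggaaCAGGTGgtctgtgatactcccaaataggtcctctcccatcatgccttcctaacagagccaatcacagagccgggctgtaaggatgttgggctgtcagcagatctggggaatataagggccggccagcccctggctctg
Ckmt2: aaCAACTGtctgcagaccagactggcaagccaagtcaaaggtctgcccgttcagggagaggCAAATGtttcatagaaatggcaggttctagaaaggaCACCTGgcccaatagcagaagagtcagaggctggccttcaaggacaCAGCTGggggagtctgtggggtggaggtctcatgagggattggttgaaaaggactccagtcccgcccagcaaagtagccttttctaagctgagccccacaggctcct

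An E box lay in 27 of the 34 member stretches (79.4%), against 66.2% of all 32851 stretches in the table. A MEF2 box lay in 5 (14.7%, against 2.92%), a CArG box in 4 (11.8%, against 1.47%), an MCAT element in 8 (23.5%, against 12.6%) and TATAAA in 5 (14.7%, against 12.4%). Some genes have several starts. Of the 28 genes, 23 held an E box, 5 a MEF2 box, 3 a CArG box, 8 an MCAT element and 5 TATAAA. In the Myh1 and Myh4 stretches, 1 TATAAA match on the reverse strand lies inside the MEF2 box and is not separate from it. Myh4 held 1 match to the MEF2 box and 1 to the CArG box, Acta1 a CArG box at 73 to 64 bases before its start and a TATAAA match at 7 to 2 bases, and the Myh2 stretch no match to any of these letters. The stretches of the 3 heavy chain genes share a run of letters: 20 identical bases between Myh1 and Myh4, and 21 between Myh1 and Myh2 and between Myh4 and Myh2, while the longest run that Myh1 shares with Acta1 is 9. Myh3, Myh2, Myh1, Myh4, Myh8 and Myh13 follow one another on chromosome 11 in the gene table, so these 3 members are also neighbours. A match is a description of the letters, and binding was not measured.

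Nearly all members were highest in the same 2 livers. Both 002MSXH 4 and 002MSXH 6 lay above the highest of the other 18 arrays at 50 of the 64 member probe sets, which cover 36 of the 37 genes, and by more than 0.01 at 38 probe sets of 33 genes. Over all named probe sets the share was 1.46% (510 of 34945), and 0.212% by more than 0.01. The choice of members used this contrast, so nothing is read from the difference between those shares. Both arrays lay below the lowest of the others at 0 member probe sets, against 0.652% of all. The mean level over the 64 probe sets was 6.93 on 002MSXH 4 and 6.67 on 002MSXH 6. It ran from 6.227 to 6.253 on the other 8 002MSXH arrays (median 6.240) and from 6.227 to 6.246 on the 10 HFD arrays (median 6.231). The other 8 002MSXH arrays therefore overlapped HFD, and the 2 high arrays overlapped neither.

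The 8 thick filament genes all lay above the other arrays, at 10 of their 13 probe sets. Myh1, the heavy chain of fast IIX fibres, had a level of 12.50 on 002MSXH 4 and 10.64 on 002MSXH 6. Its lowest, median and highest levels were 5.61, 5.84 and 6.03 on the other 002MSXH arrays, and 5.60, 5.62 and 5.74 on the HFD arrays. Nothing lay between 6.03 and 10.64. A second Myh1 probe set gave 12.47 and 10.79, against at most 6.23 on the other 002MSXH arrays and 6.11 on the HFD arrays. The third was flat, at 6.0912 on both and up to 6.0912 on the others. Heavy chain genes are similar in sequence. The name of the first Myh1 probe set ends in _x_at, which on this array type marks probes that may bind more than 1 transcript. A part of Myh2 or Myh4 RNA in the Myh1 values was not tested.

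Myl1, an essential light chain of fast myosin, had a level of 8.19 on 002MSXH 4 and 7.39 on 002MSXH 6. The other 002MSXH arrays had 6.08, 6.12 and 6.15 (lowest, median and highest), and the HFD arrays 6.04, 6.11 and 6.15. Myh2, the heavy chain of fast IIA fibres, stood at 7.91 and 7.21. The other 002MSXH arrays had 6.29, 6.32 and 6.36, and the HFD arrays 6.28, 6.30 and 6.31. For both genes the 2 arrays were clear of the other 18, and these overlapped between diets. Myh4, the heavy chain of IIB fibres, the fastest type, was at 6.75 and 6.31. It had 5.81, 5.86 and 5.87 on the other 002MSXH arrays and 5.81, 5.84 and 5.88 on the HFD arrays. Mylpf, the regulatory light chain of fast myosin, stood at 7.36 and 6.93, against at most 6.56 on the other 18. A second Myh4 probe set, like the third of Myh1, did not set the arrays apart.

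**Figure D1:**
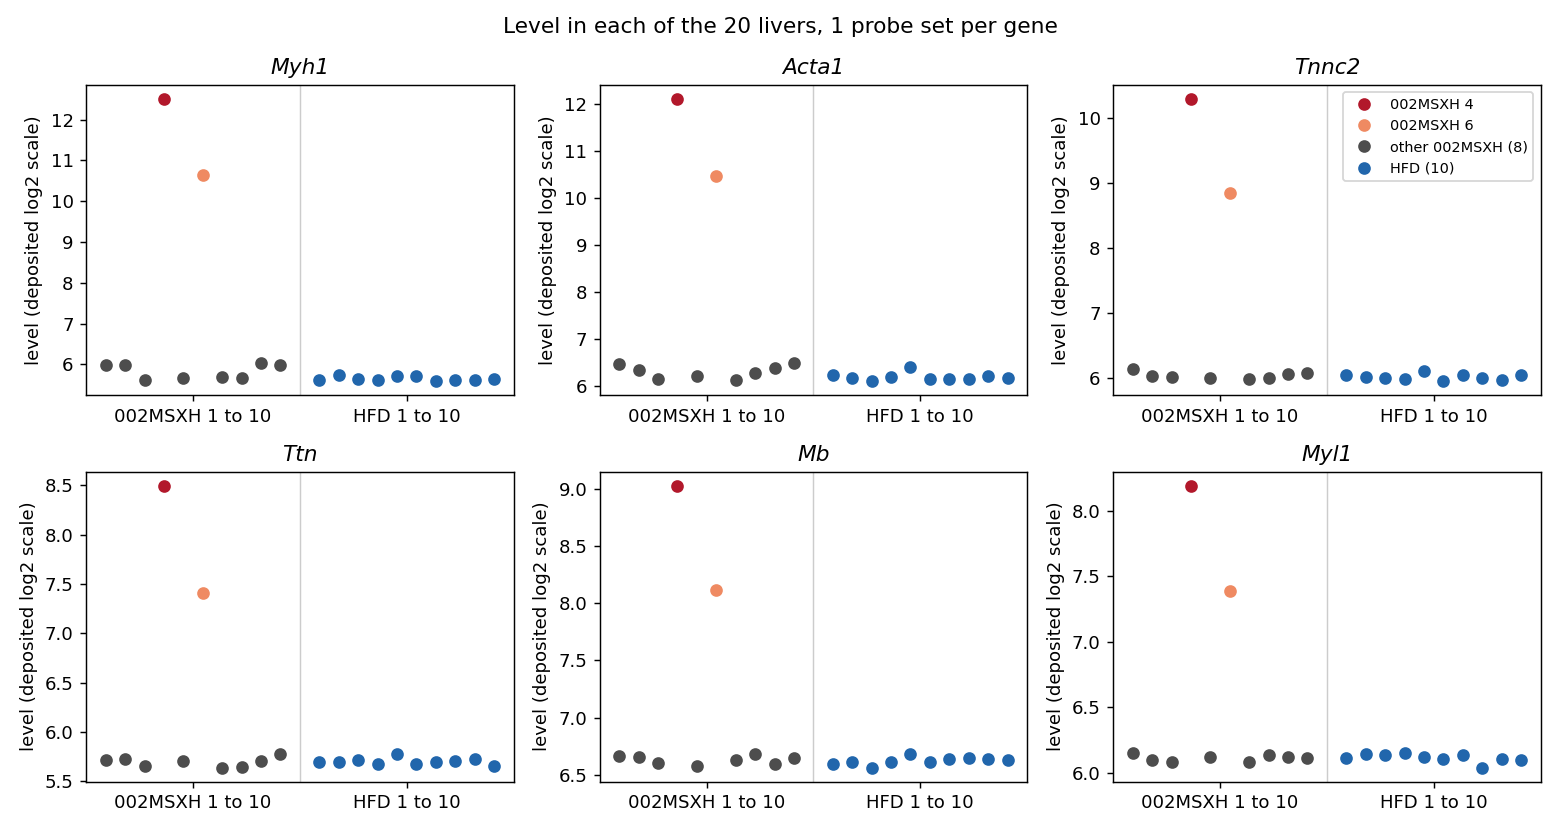
Level of 1 probe set per gene (vertical axes, deposited log2 scale) in each of the 20 livers (horizontal axes, 002MSXH 1 to 10 and then HFD 1 to 10), 1 point per array. In each panel 002MSXH 4 is highest and 002MSXH 6 next, as for Myh1 at 12.50 and 10.64 with the other 18 arrays at 6.03 or below.

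The thin filament genes followed the same order of arrays. All 8 lay above the others at 11 of their 13 probe sets. Acta1, the actin of adult skeletal muscle, had a level of 12.11 on 002MSXH 4 and 10.46 on 002MSXH 6. The lowest, median and highest levels were 6.13, 6.31 and 6.49 on the other 002MSXH arrays and 6.11, 6.17 and 6.42 on the HFD arrays. Tnnc2, the calcium-binding troponin subunit of fast fibres, stood at 10.29 and 8.84. The other 002MSXH arrays had 5.98, 6.02 and 6.13, and the HFD arrays 5.95, 6.01 and 6.11. Neither gene's 2 high values came near the other 18.

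Tnni2, the inhibitory troponin subunit of fast fibres, was at 7.82 and 7.02 on these arrays. It was at 5.98, 6.02 and 6.08 on the other 002MSXH arrays and at 5.95, 6.01 and 6.07 on the HFD arrays. Tnnt3, the fast subunit that ties troponin to tropomyosin, was at 7.32 and 6.70, against 5.98, 5.99 and 6.01 on the other 002MSXH arrays and 5.98, 6.02 and 6.04 on the HFD arrays. A second Tnni2 probe set repeated the order at 7.95 and 7.66, against at most 7.33, and the third was flat near 5.89. Tpm2, the beta tropomyosin that lies along actin, lay above the others at 3 of its 4 probe sets. Its widest gave 5.98 and 5.84, against at most 5.73. At the fourth, 002MSXH 4 stood at 7.071 and 002MSXH 6 at 7.043, which HFD 5 passed at 7.046. Neb, the giant nebulin along the thin filament, had 6.765 and 6.693, against at most 6.680 on the other 18, where HFD 2 was highest.

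The Z-disc genes and titin were set apart at 14 of 16 probe sets and in all 8 genes. Ttn, the titin spring from Z-disc to the middle of the sarcomere, had a level of 8.49 on 002MSXH 4 and 7.40 on 002MSXH 6. Its levels were 5.64, 5.71 and 5.78 on the other 002MSXH arrays and 5.66, 5.70 and 5.78 on the HFD arrays. Of the 6 Ttn probe sets, 4 set the arrays apart and the mean difference ran from -1.36e-05 to 2.25. Myot, the Z-disc protein myotilin, was at 6.81 and 6.29, against 5.72, 5.76 and 5.80 on the other 002MSXH arrays and 5.72, 5.77 and 5.80 on the HFD arrays. Tcap, the cap that joins titin ends at the Z-disc, was at 7.14 and 6.89, against 6.70, 6.70 and 6.73 on the other 002MSXH arrays and 6.69, 6.70 and 6.70 on the HFD arrays. Smpx, a small protein of striated muscle, was at 5.92 and 5.71, with at most 5.55 elsewhere. Actn2 and Actn3, the alpha-actinins that cross-link actin at the Z-disc, and Ldb3 and Myoz1, which bind them, were 0.0490 to 0.106 above the median of the other 18 on 002MSXH 4 and 0.0163 to 0.0395 above it on 002MSXH 6. At the leading probe set of all 8 genes the 2 diets overlapped once these arrays were set aside.

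All 7 calcium-handling genes were set apart, at 10 of 14 probe sets, by at most 0.182 above the median of the other 18. Sln, sarcolipin, a small inhibitor of the calcium pump, had a level of 6.19 on 002MSXH 4 and 6.10 on 002MSXH 6. It had 6.004, 6.011 and 6.016 on the other 002MSXH arrays and 6.005, 6.012 and 6.019 on the HFD arrays. Pvalb, the calcium buffer parvalbumin of fast fibres, stood at 6.76 and 6.66. The other 002MSXH arrays had 6.602, 6.608 and 6.613, and the HFD arrays 6.606, 6.613 and 6.617. Ryr1, the calcium release channel, was at 5.89 and 5.81, against 5.773, 5.776 and 5.779 on the other 002MSXH arrays and 5.774, 5.776 and 5.778 on the HFD arrays. Atp2a1, the calcium pump of fast fibres, was at 6.71 and 6.65, with at most 6.613 elsewhere. Trdn, triadin, which anchors calsequestrin to the release channel, was set apart at 3 of its 6 probe sets. Casq1, the calcium store of the reticulum, at 6.410 and 6.398 against at most 6.395, and Cacna1s, the voltage sensor, at 6.0801 and 6.0786 against at most 6.0781, were above the others by less than 0.01. With array centring Cacna1s was no longer set apart.

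Among the 6 genes of energy supply, 5 were set apart, at 5 of 8 probe sets. Mb, myoglobin, the oxygen store of muscle, had a level of 9.02 on 002MSXH 4 and 8.11 on 002MSXH 6. Its levels were 6.58, 6.64 and 6.68 on the other 002MSXH arrays and 6.56, 6.62 and 6.68 on the HFD arrays. Ckmt2, the mitochondrial creatine kinase of striated muscle, stood at 6.72 and 6.26, against 5.81, 5.83 and 5.84 on the other 002MSXH arrays and 5.82, 5.84 and 5.86 on the HFD arrays. Ckm, the creatine kinase of the cytosol, was at 7.41 and 7.06, against 6.70, 6.71 and 6.73 on the other 002MSXH arrays and 6.70, 6.71 and 6.73 on the HFD arrays. The muscle enolase Eno3 was at 7.154 and 7.088 and the muscle phosphoglycerate mutase Pgam2 at 6.716 and 6.659, with at most 7.055 and 6.638 elsewhere. Pygm, the muscle glycogen phosphorylase, is the 1 gene that was not set apart. It was highest on 002MSXH 4, at 6.9260, but 002MSXH 6, at 6.92287, lay below the highest HFD array, at 6.92292.

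**Figure D2:**
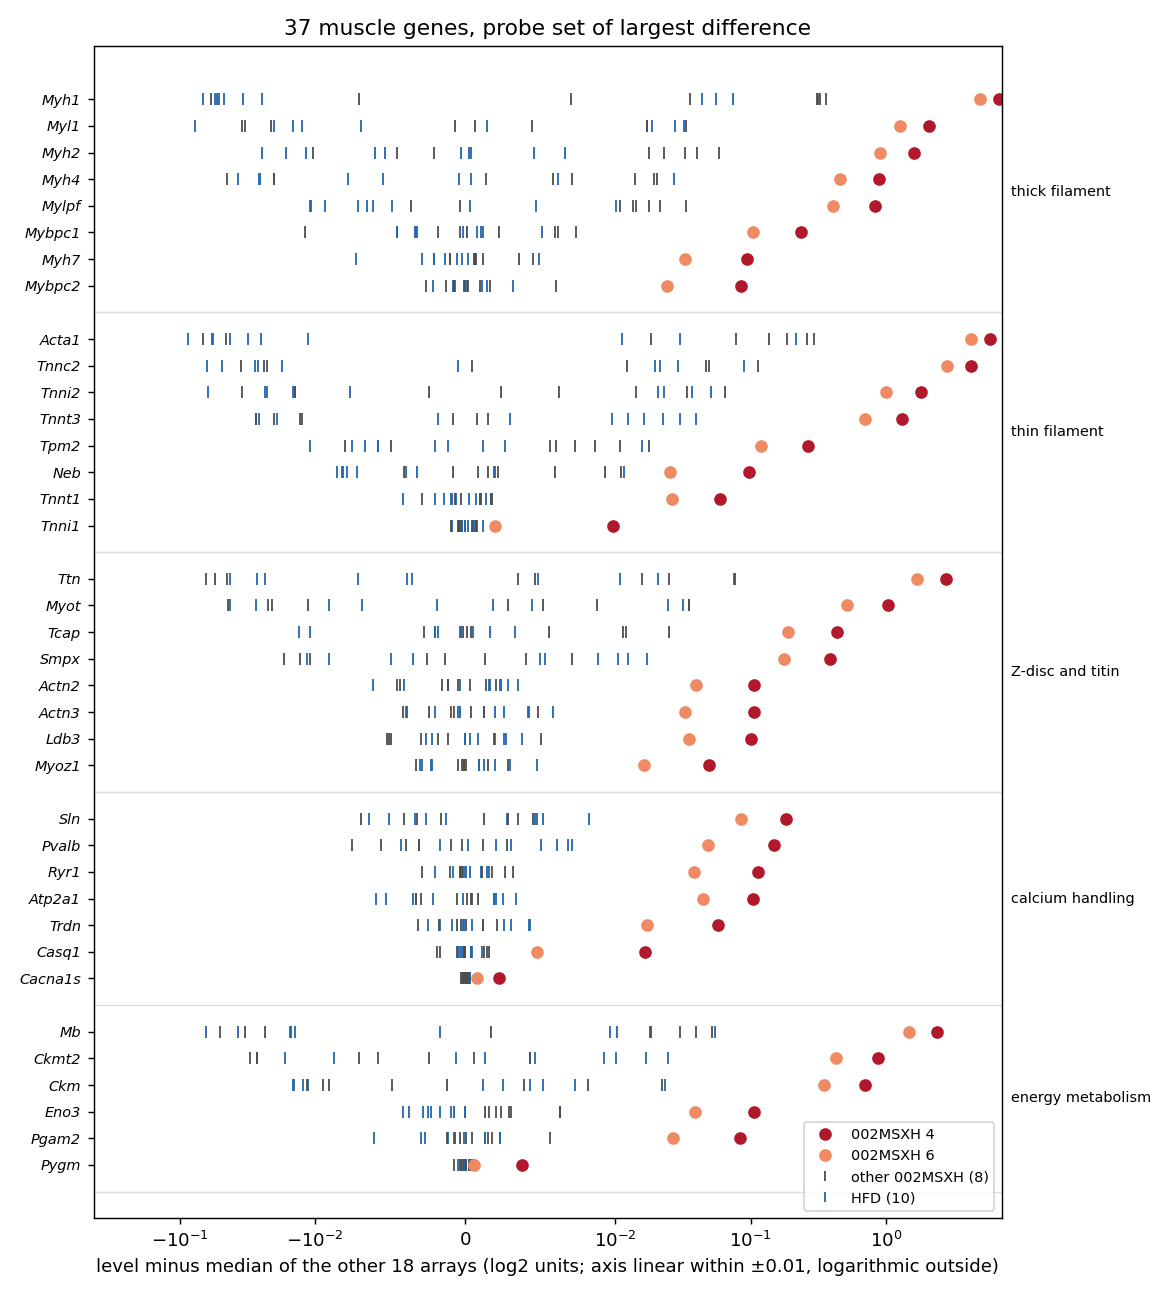
Level minus the median of the other 18 arrays (horizontal axis, log2 units, linear within ±0.01 and logarithmic outside) for the 37 genes (rows), at each gene's probe set of largest difference. Large points are 002MSXH 4 and 002MSXH 6 and ticks are the other 8 002MSXH and the 10 HFD arrays; at Myh1 the 2 points stand at 6.84 and 4.97, and Pygm is the 1 row where 002MSXH 6 lies within the ticks.

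Members just inside and just outside the count show how fine its edge is. The lower of the 2 arrays exceeded the highest of the others by 3.13e-06 at a Myoz1 probe set, by 3.65e-05 at an Ldb3 probe set and by 1.41e-04 at a Tpm2 probe set. The same difference was -1.35e-07 at a Trdn, -1.37e-06 at an Mb and -6.61e-06 at a Ttn probe set. The 14 member probe sets outside the count belong to 11 genes, and Pygm alone among these has no other probe set inside it.

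The highest of the other 18 arrays was not always the same liver. At the 50 member probe sets set apart, HFD 5 and HFD 9 were highest of the 18 at 7 each, 002MSXH 10 at 6, and 002MSXH 8 and HFD 2 at 5 each, while HFD 1, 4, 6, 7 and 8 were highest at 0. Over all named probe sets, HFD 5 was highest of the 18 at 5.84%, HFD 9 at 5.94%, 002MSXH 10 at 4.53%, 002MSXH 8 at 7.03%, HFD 2 at 5.71% and HFD 7 at 6.41%.

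Fast isoforms were set apart at 17 of 20 probe sets and in all 14 genes listed, and slow isoforms at 13 of 24 probe sets and in 9 of 11 genes. All 14 fast genes are members, chosen by their levels on these arrays, and most of the slow genes are not. The fast and slow counts are therefore not compared. Slow isoforms that are members were set apart at 5 of 6 probe sets, in 4 of 4 genes. Of the slow isoforms that are no members, 8 of 18 probe sets in 5 of 7 genes were set apart. Myh7, the heavy chain of slow fibres, had a level of 6.742 on 002MSXH 4 and 6.681 on 002MSXH 6, against 6.647, 6.649 and 6.653 on the other 002MSXH arrays and 6.641, 6.647 and 6.653 on the HFD arrays. Tnnt1, the slow troponin T, was at 6.430 and 6.397, against 6.368, 6.371 and 6.372 on the other 002MSXH arrays and 6.366, 6.370 and 6.372 on the HFD arrays. Tnni1, the slow troponin I, was at 6.609 and 6.601, against at most 6.600. Mybpc1, the slow myosin-binding protein C, was at 6.68 and 6.55, against at most 6.45, and its fast counterpart Mybpc2 at 6.08 and 6.02, against at most 6.00. Parts of both fibre types were thus highest on the same 2 arrays.

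Among the slow genes outside the members, Tnnc1, Myl2, Myl3, Tpm3 and Myoz2 were set apart, and Atp2a2 and Casq2 were not. Tnnc1, the troponin C of slow fibres and heart, was at 6.058 and 6.003, against at most 5.980. Myl2, the regulatory light chain of slow fibres and heart, was at 6.44 and 6.21, against at most 6.07. For Myl3, Tpm3 and Myoz2 the gap was also over 0.01. Atp2a2, the calcium pump of slow fibres that liver cells also use, was at 9.881 and 9.872, and the highest of the other 18 was 9.874. Casq2, the calsequestrin of heart and slow fibres, was at 6.50197 and 6.50127, against at most 6.50136. In each fast and slow pair the values of both are a description: the 9 pairs sit on different probe sets, and at the 3 probe sets of Myh1 alone the mean difference ran from 5.87e-05 to 5.91, so no ratio of fast to slow RNA was taken.

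002MSXH 4 was higher than 002MSXH 6 at all 50 member probe sets where both were above the others, against 419 of the 510 such named probe sets. At the 38 member probe sets with a gap over 0.01, the difference of 002MSXH 6 from the median of the other 18 was 0.261 to 0.744 of that of 002MSXH 4, with a median of 0.446. These probe sets share the same 2 arrays, and on a compressed log scale the share is no measure of how much RNA each array held.

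**Figure D3:**
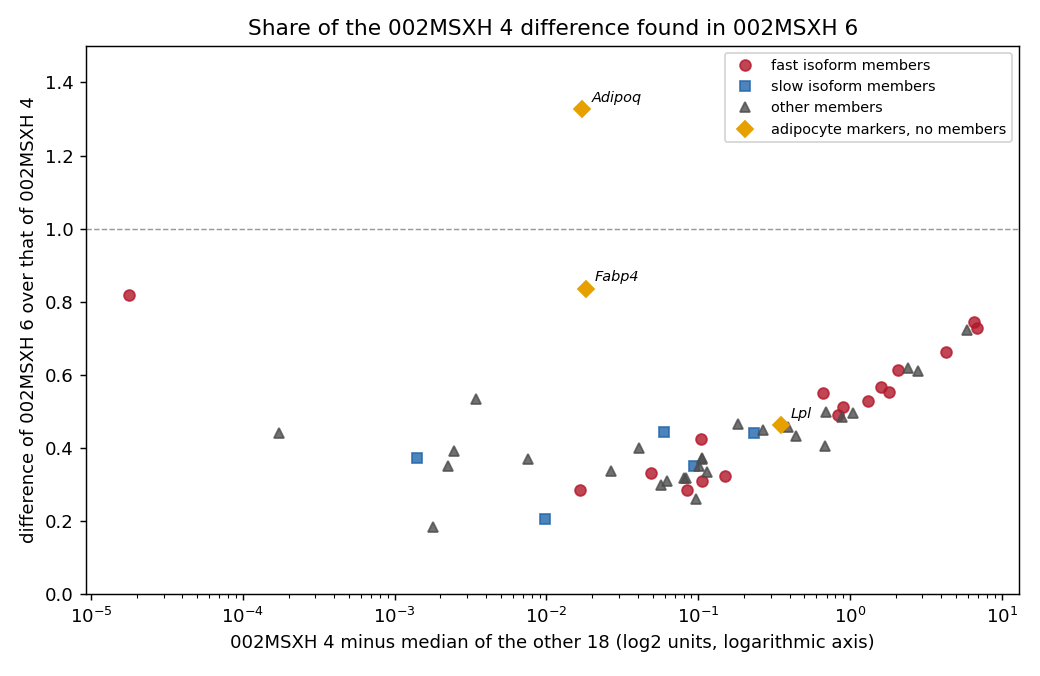
Difference of 002MSXH 6 over that of 002MSXH 4, each from the median of the other 18 arrays (vertical axis, a ratio), against the difference of 002MSXH 4 (horizontal axis, log2 units on a logarithmic axis). Circles, squares and triangles are fast, slow and other member probe sets where both arrays lay above the other 18, and diamonds are 3 adipocyte markers. The members lie between 0.185 and 0.818, and Adipoq at 1.33 lies above the dashed line of equal differences.

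Other genes of striated muscle, from a list of 56 of which 51 were measured, were set apart at 48 of 87 probe sets and in 39 genes, 18 of them by more than 0.01. The 10 genes outside the members with the widest gap between the lower of the 2 arrays and the highest of the other 18 were Fabp3, Slc25a4, Trim63, Cox6a2, Cox8b, Cryab, Tpm1, Myl2, Fhl1 and Ldhb, and 9 of them are on the muscle lists. Fabp3, the fatty acid carrier of heart and muscle, was at 7.64 on 002MSXH 4 and 6.93 on 002MSXH 6, against at most 6.19. Slc25a4, the ADP/ATP carrier of muscle mitochondria, was at 8.25 and 7.85, against at most 7.49. Trim63, the ubiquitin ligase MuRF1, which marks muscle protein for breakdown, was at 6.47 and 6.09, against at most 5.77. Cox6a2 and Cox8b, the muscle forms of cytochrome oxidase subunits, were at 7.15 and 6.85 and at 6.77 and 6.49, against at most 6.62 and 6.30. The others above by more than 0.01 were Myom2, Srl, Ak1, Cox7a1, Fbxo32, Klhl41, Lmod2, Hspb7, Txlnb and Cmya5. Those above by less were Myom1, Jph1, Hrc, Cacnb1, Pfkm, Ampd1, Klhl40, Lmod3, Nrap, Hspb6, Tmod4, Apobec2, Art1, Pdlim3, Rpl3l, Cav3, Asb5, Asb11, Itgb1bp2, Synpo2l and Des. The 12 measured genes of the list that were not set apart include Mybph, Jph2, Stac3, Clcn1 and Car3, the last a carbonic anhydrase that liver makes too. Of the 74 named probe sets with a gap over 0.01, 38 were members and 65 were members or on the muscle lists.

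Lists of other muscle states and of other cell types gave smaller counts. Over all named probe sets the share set apart was 1.46%, and 0.212% by more than 0.01. In lists this short 1 probe set already exceeds the first share, and a count of 0 by more than 0.01 says little. Regulators of myogenesis and genes of the neuromuscular junction were set apart at 3 of 16 probe sets, in Myf6 and Mef2c, and at 0 by more than 0.01. Embryonic and neonatal isoforms were set apart at 1 of 8 probe sets, in Actc1, with Myh3 at 5.90763 on both arrays and at most 5.90766 elsewhere. Cardiac markers were set apart at 0 of 14 probe sets, with Myh6 at 5.937 on all arrays. Smooth muscle markers were set apart at 2 of 17 probe sets, in Synpo2 and Mylk, both by less than 0.01. Tendon and connective tissue markers were set apart at 3 of 18 probe sets (Tnmd, Thbs4 and Col1a1), Schwann cell markers at 1 of 11 (Mbp), exocrine pancreas markers at 1 of 9 (Prss2), cholangiocyte markers at 2 of 7 (Krt19 and Krt7) and brown adipocyte markers at 1 of 7 (Cidea). In each of these lists 0 probe sets were above by more than 0.01. Kidney and gut, erythroid, endothelial and hepatocyte markers were set apart at 0 of 8, 0 of 5, 0 of 8 and 0 of 18 probe sets.

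Of the adipocyte markers, 3 of 8 genes were set apart, at 5 of 15 probe sets, 2 of the genes by more than 0.01. Adipoq, the adipokine adiponectin, was at 5.836 on 002MSXH 4 and 5.842 on 002MSXH 6, against 5.818 to 5.821 on the other 18 arrays. Here 002MSXH 6 was the higher array, unlike at any of the 50 member probe sets set apart. Fabp4, the fatty acid carrier of adipocytes, was at 8.508 and 8.505, against 8.485 to 8.498. Lpl, the lipoprotein lipase made by both adipocytes and muscle, was at 8.54 and 8.35, against 8.12 to 8.27. Lep was at 6.11526 on both arrays and on the other 18, and Retn, Cidec, Lipe and Pck1 were not set apart. The mean level of the list was 7.493 and 7.475, against 7.455 to 7.466 on the other 002MSXH arrays and 7.454 to 7.461 on the HFD arrays. The part of these markers in the muscle values was not tested.

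**Figure D4:**
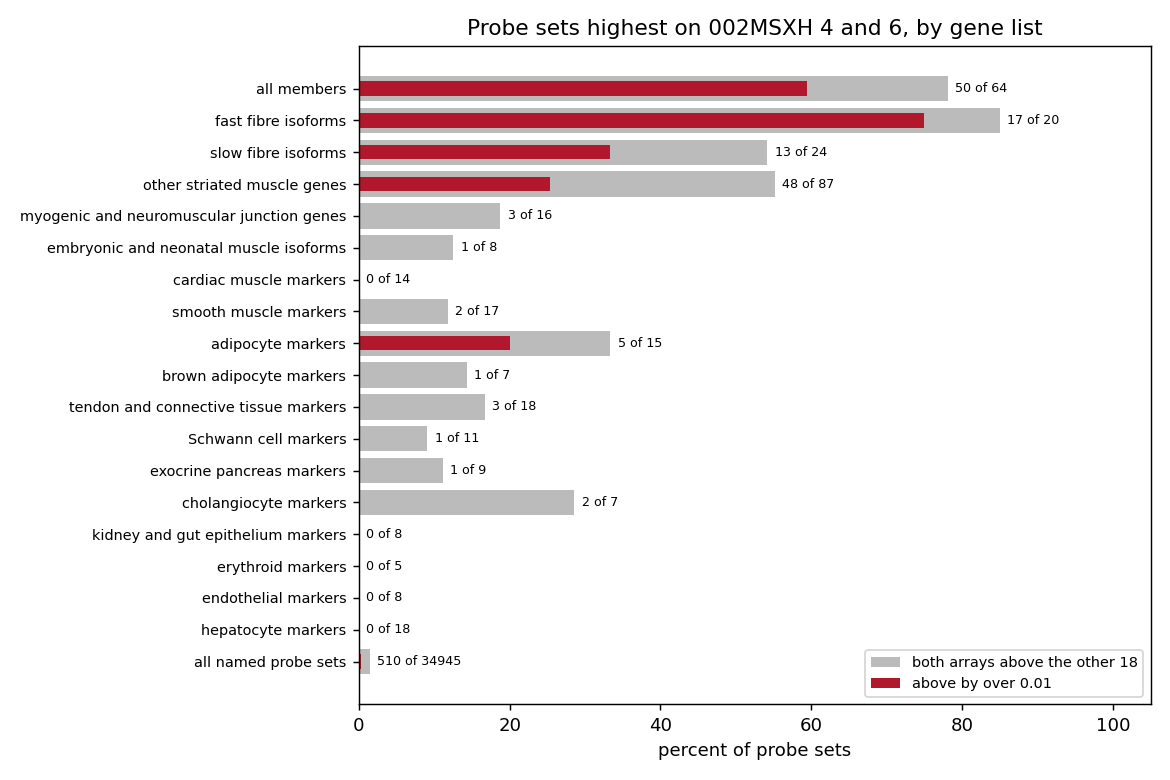
Percent of each gene list's probe sets (horizontal axis) at which both 002MSXH 4 and 002MSXH 6 lay above the highest of the other 18 arrays (grey bars) and did so by over 0.01 (narrow bars), by list (rows). All members together stand at 78.1% and the other striated muscle genes at 55.2%, while cardiac, erythroid, endothelial and hepatocyte markers stand at 0.

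The study's comparison asks what the extract did to livers on the high-fat diet. Over all 34945 named probe sets, limma's moderated test with Benjamini-Hochberg adjustment called 0 between the 10 002MSXH and the 10 HFD mice at an adjusted p of 0.05. At an unadjusted p under 0.05 it listed 3746 (10.7%), 2108 higher in 002MSXH (6.03%) and 1638 lower (4.69%). This split turned with the scaling: 56.3% of those listed were higher in 002MSXH as deposited, but 7.55% of 424 after array centring and 1.25% of 1756 after quantile normalization. The members' difference in that comparison rests on the 2 arrays that chose them and is given above. Without 002MSXH 4 and 002MSXH 6 the same test called 0 probe sets, and 3491 (9.99%) had an unadjusted p under 0.05. Among the 64 member probe sets this was so for 14, of which 9 were higher in 002MSXH (background 5.76%) and 5 lower (background 4.23%), and 36 of the 64 had the higher mean in 002MSXH, against 18579 of all 34945. The median standardized difference, that is the difference over the SD within groups, was 0.19 for the members and 0.05 over all named probe sets. None of the following values passed the adjusted threshold.

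Eno3, the muscle enolase, was the member of smallest p in these 18 mice. Its level ran from 7.0504 to 7.0554 in the 8 002MSXH mice and from 7.0449 to 7.0491 in the 10 HFD mice, so the groups did not overlap. The mean was 7.0523 ± 0.00199 (SD, n = 8) in 002MSXH and 7.0472 ± 0.00146 (SD, n = 10) in HFD, a difference of 0.00512 ± 0.000793 (SE), with an adjusted p of 0.157 by limma. The 002MSXH mouse was higher in 80 of 80 pairs of mice. Earlier results of these data had already singled this gene out, so this is no independent finding. Mylpf averaged 6.542 ± 0.0118 (SD, n = 8) in 002MSXH and 6.525 ± 0.00695 (SD, n = 10) in HFD, with an adjusted p of 0.229 by limma and the 002MSXH mouse higher in 74 of 80 pairs.

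The leading Myh1 probe set averaged 5.83 ± 0.182 (SD, n = 8) in 002MSXH and 5.65 ± 0.0526 (SD, n = 10) in HFD, with an adjusted p of 0.359 by limma and 62 of 80 pairs higher in 002MSXH. The 8 mice did not lie evenly: 002MSXH 1, 2, 9 and 10 had 5.976, 5.991, 6.028 and 5.982, which is above the highest HFD mouse at 5.738, and 002MSXH 3, 5, 7 and 8 had 5.606, 5.671, 5.700 and 5.657, which is within the HFD range. This split was seen in the values and was not tested. The second Myh1 probe set had an adjusted p of 0.591 by limma and 57 of 80 pairs higher. At this second probe set 002MSXH 1, 2, 9 and 10 were again the highest of the 8, at 6.227, 5.991, 6.049 and 6.109. There 002MSXH 3, 5, 7 and 8 had 5.710, 5.941, 5.843 and 5.940. The separation from HFD was not repeated: HFD 5 stood at 6.112, and only 002MSXH 1 lay above it. Myh2 was higher in 63 of 80 pairs, Tcap in 63, Neb in 62 and Acta1 in 59, with adjusted p from 0.361 to 0.481 by limma. Acta1 overlapped widely, at 6.13 to 6.49 in 002MSXH and 6.11 to 6.42 in HFD.

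Other members had the lower mean in 002MSXH. Ckmt2 averaged 5.824 ± 0.0139 (SD, n = 8) in 002MSXH and 5.840 ± 0.0119 (SD, n = 10) in HFD, with the 002MSXH mouse higher in 13 of 80 pairs and an adjusted p of 0.390 by limma. Tnnt3 averaged 5.992 ± 0.0120 (SD, n = 8) in 002MSXH and 6.013 ± 0.0205 (SD, n = 10) in HFD, higher in 14 of 80 pairs, with an adjusted p of 0.418 by limma. Pvalb was higher in 18 of 80 pairs, with an adjusted p of 0.447 by limma. The rest of the 14 had group means within 0.001 of each other. Among them, a Mybpc1 and a Tnni2 probe set were lower in 002MSXH, and probe sets of Trdn were higher. At a Trdn probe set the 002MSXH mouse was higher in 74 of 80 pairs, with an adjusted p of 0.217 by limma. In the 18 mice, fast isoforms thus lay in both directions, and no direction passed the adjusted threshold.

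**Figure D5:**
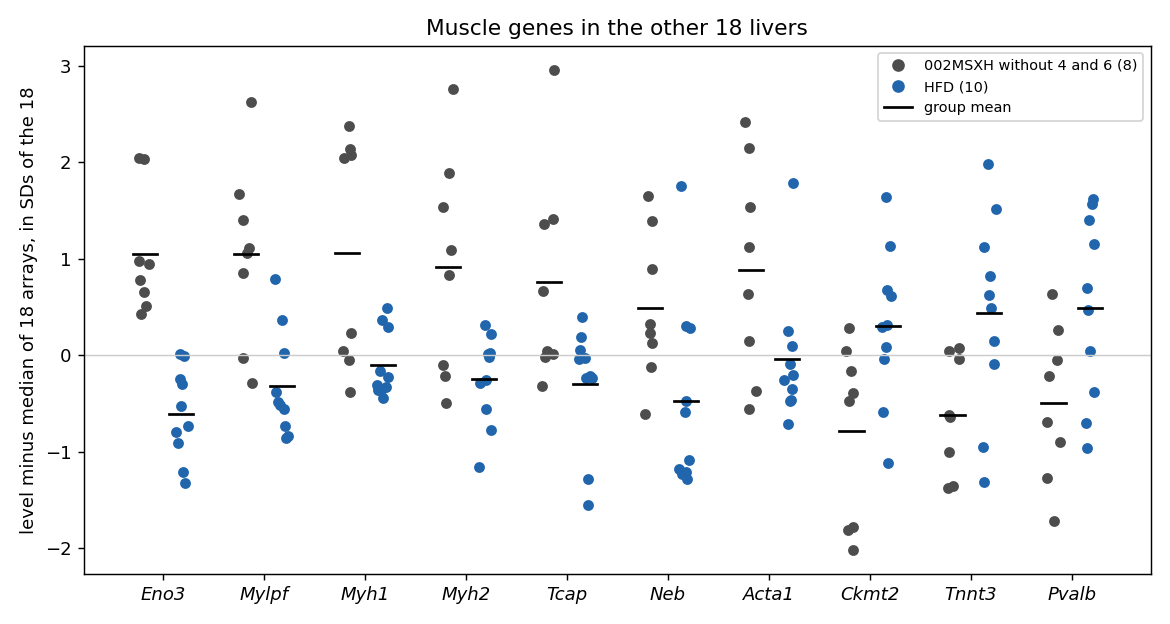
Level minus the median of the 18 arrays, in SDs of those arrays (vertical axis), for member genes (horizontal axis) in the 8 002MSXH mice without 002MSXH 4 and 002MSXH 6 (left of each pair) and the 10 HFD mice, 1 point per mouse with a line at each group mean. Eno3 is the gene shown whose groups do not overlap, and the others overlap.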

How the data were processed

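Levels of 45101 probe sets on 20 Affymetrix arrays were used. The deposited values were read as log2 because of their range, and were not changed; how the authors scanned, normalized and summarized the arrays is not given in the sources used here. Per the labels, groups come from the sample titles; depth does not apply to arrays, and 8 to 10 mice per group limit the precision. The platform gene table gave 34945 probe sets 1 symbol, 932 several and 9160 none, and 64 are controls; analysis was kept to the first set. The gene table of GRCm38.p6 held all 37 gene IDs under the same symbols. limma 3.58.1 in R 4.3.3 (lmFit, eBayes with a mean-variance trend, two-sided, Benjamini-Hochberg over the 34945, threshold 0.05) compared 10 002MSXH with 10 HFD mice, and 8 with 10 without 002MSXH 4 and 002MSXH 6. The fit was tested on simulated data.

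Genes given in every group were, by rule, the 3 of each role with the largest mean difference of 002MSXH 4 and 002MSXH 6, the fast and slow pairs, the 10 other genes of widest gap and the list genes set apart. Mylpf, Smpx, Eno3, Pgam2 and Neb, and the values of arrays singled out, were chosen after their values were seen. The members and all lists were chosen with earlier results of these data known. Alternatives were quantile normalization, array centring, 1 probe set per gene, probe sets above the median level, eBayes without trend and robust, the rank sum test, a block by replicate number and leaving out arrays. The count of gaps over 0.01 was added after seeing the data. Replicate numbers only name mice: the correlation of mice sharing a number ran from -0.239 to 0.122, with 2 of 10 over 0.1.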

Additional observations from a re-analysis of the deposited data

Results flagged for a closer look

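In groups of 10 arrays, 1 probe set of each member gene was examined for an array set off from the rest by Dixon's measure, the gap to the nearest array over the whole range of the group. Of 74 such groups, 31 were past the usual critical value, 27 in 002MSXH and 4 in HFD. In the 27, 002MSXH 4 was the highest array. The members were chosen on this array and share it, so these 27 values are a description and no test. The measure was 0.601 for Actn2, 0.665 for Actn3, 0.618 for Ldb3, 0.484 for Myot, 0.626 for Myoz1, 0.521 for Smpx and 0.564 for Tcap, at the Z-disc. Among calcium-handling genes it was 0.558 for Atp2a1, 0.583 for Cacna1s, 0.643 for Casq1, 0.645 for Pvalb, 0.648 for Ryr1, 0.515 for Sln and 0.665 for Trdn. Among energy genes it was 0.492 for Ckm, 0.499 for Ckmt2, 0.638 for Eno3, 0.672 for Pgam2 and 0.705 for Pygm. In the filaments it was 0.531 for Mybpc1, 0.694 for Mybpc2, 0.643 for Myh7, 0.508 for Mylpf, 0.709 for Neb, 0.727 for Tnni1, 0.530 for Tnnt1 and 0.536 for Tpm2. Myh1, Acta1 and Tnnc2 are not among these, since 002MSXH 6 stood high beside 002MSXH 4 and narrowed the gap between the highest arrays.

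In HFD, 4 of 37 genes had such an array. Chance gives about 1 in 20 independent groups, but these genes were all read on the same HFD arrays. The 4 are therefore a description and are not compared with that share. HFD 5 was highest for Acta1 (0.614) and Tpm2 (0.491), HFD 2 was highest for Neb (0.478), and HFD 8 was lowest for Myl1 (0.517). For Acta1, 002MSXH 6 stood at 10.46 and HFD 5 at 6.42. For Neb, 002MSXH 6 stood at 6.693 and HFD 2 close below it at 6.680.

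Outside the named probe sets, 10092 had no symbol or several, and at 5 of these both 002MSXH 4 and 002MSXH 6 lay above the other 18 arrays by more than 0.01. They carry no single gene name here.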

How the results depend on the processing

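The count of member probe sets with both 002MSXH 4 and 002MSXH 6 above the other 18, which is 50 of 64, was 46 after quantile normalization (36 of 37 genes) and 44 after array centring (35 genes, with Cacna1s lost). Read on 002MSXH 6 without replicate 4 it was 51, and on 002MSXH 4 without replicate 6 it was 60. It was 38 with a gap over 0.01, 30 of 37 with the probe set of highest mean for each gene, and 10 of 15 with probe sets above the median level, where fewer were tested. Under both scalings, the differences of Cacna1s, Pygm and Tnni1 moved by more than the spread between arrays.

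Between 10 002MSXH and 10 HFD mice, 0 probe sets passed the adjusted threshold by limma or the rank sum test under any setting run, and unadjusted counts were 424 after centring, 1756 after quantile normalization, 1982 with 1 probe set per gene and 1885 above the median level, against 3746. Of those listed, 56.3% were higher in 002MSXH, but 7.55% after centring and 1.25% after quantile normalization; the array medians of 002MSXH 4 and 002MSXH 6 are the highest of the 20. Without these arrays 57.7% of 3491 were higher, 59.8% of 627 after centring and 52.9% of 4026 after quantile normalization.

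Between 8 and 10 mice, 0 member probe sets passed the adjusted threshold under any setting run. The unadjusted count of 14 became 5 above the median level, with 4 higher against 9 and 1 lower against 5, and the rank sum test listed 3 lower. Leaving out each mouse gave 11 to 16 in all, 7 to 12 higher and 4 to 6 lower. The fit with a replicate block listed 14, with 8 higher and 6 lower, and 3496 over all probe sets between 10 and 10. Eno3 kept an unadjusted p under 0.05 in 25 of 25 alternatives (adjusted p 0.0883 to 0.285), and Acta1 in 13 of 25, the third Tnni2 probe set in 16 of 23, Neb in 17 of 25 and Pvalb in 18 of 24. The cause of these losses was not tested. No listed difference changed its sign.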

Other observations

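Of the 74 named probe sets above the other 18 arrays by more than 0.01, 9 were neither members nor on the muscle lists. Besides Lpl and Adipoq they were Ldhb, a lactate dehydrogenase subunit, at 6.31 on 002MSXH 4 and 6.16 on 002MSXH 6 against at most 6.07, Tmem182, at 5.90 and 5.77 against at most 5.72, Myhas, at 6.482 and 6.440 against at most 6.402, Asb15, at 5.50 and 5.43 against at most 5.41, and Pdlim5, at 7.057 and 7.012 against at most 6.997. No named probe set had both arrays below the lowest of the others by more than 0.01. These genes were named after their values were seen. The muscle lists are not complete, so absence from them does not make a gene foreign to muscle.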
